A study of Homo sapiens with 2 samples.

Results

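The AP-1 family genes are the 10 genes FOS, FOSB, FOSL1, FOSL2, JUN, JUNB, JUND, BATF, BATF2 and BATF3, taken by name. Their chromatin was read from every peak that touched a gene body or the 50 kb on either side of it, 10 windows in all, out of 19974 genes that code for protein, with chromosome Y and unplaced contigs left out. The windows held 93 of the 58730 J76 peaks and 89 of the 84951 293T peaks on those chromosomes. Both lines were profiled by ATAC-seq, in which a transposase, here Tn5 purified by the submitters, cuts open chromatin and leaves sequencing adapters, with 50000 cells per reaction. J76 is a T cell acute lymphoblastic leukemia line, a derivative of Jurkat that lacks the T cell receptor chains. 293T, labelled T293 on its sample, is an embryonic kidney line that carries the SV40 large T antigen. No treatment is named for either line, and the cells were taken while growing. Each line gave 1 library and 1 peak list, so differences between the lines have no replicate check and no p-value is given.

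AP-1 is a transcription factor made of pairs of basic leucine zipper (bZIP) proteins, usually a FOS protein with a JUN protein. JUN proteins can pair with one another, whereas FOS proteins need a partner. FOS, FOSB, JUN and JUNB are immediate early genes, which growth factors and T cell receptor signals switch on within minutes through existing factors, among them CREB and SRF at their promoters. The BATF proteins are short members without the activation domains of FOS, and in lymphocytes they pair with JUN proteins and act with IRF4 or IRF8. Nuclear AP-1 joins NFAT at cytokine genes such as IL2 in activated T cells.

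The labels of the lines were set beside marker genes, which were chosen with earlier results of these data known and so give no independent check. Of 8 T cell genes, 7 had a peak within 1 kb of a gene end in J76 only, and the other, PTPRC, had one in both lines. All 8 embryonic kidney and epithelial genes had one in 293T only. None of the 4 B cell genes had one in either line, and of 5 myeloid genes 2 had one in 293T only, CSF1R (fold 3.13) and ITGAM (3.96). Fold is the authors' enrichment at the peak summit over background, used here only within a list, and the median over all peaks was 4.83 in J76 and 4.38 in 293T. The −log10 q is the authors' adjusted significance of a peak, higher for stronger evidence. Neither library has a known depth and the 293T list is longer, so a site without a peak is not shown to be closed.

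The promoters of 5 members are shown because they carry the comparisons that follow. FOS, JUN and JUND had a peak over the whole stretch in both lines, FOSB over the whole stretch in J76 and none in 293T, and BATF over part of it in J76 and none in 293T. Each is the 250 bases before the annotated start, 5′ to 3′ on the strand of the gene, from RefSeq (GRCh38.p14). Capitals mark TGACG, the core of the cAMP response element, and TGACNTCA, the longer element with any base in its middle, on either strand. BATF holds neither.
FOS, chr14:75278578-75278827, plus strand: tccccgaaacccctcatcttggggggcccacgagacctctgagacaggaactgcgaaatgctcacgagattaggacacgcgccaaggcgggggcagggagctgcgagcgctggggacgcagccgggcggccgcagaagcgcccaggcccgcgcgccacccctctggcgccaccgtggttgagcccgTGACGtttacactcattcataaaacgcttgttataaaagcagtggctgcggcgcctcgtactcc
FOSB, chr19:45467746-45467995, plus strand: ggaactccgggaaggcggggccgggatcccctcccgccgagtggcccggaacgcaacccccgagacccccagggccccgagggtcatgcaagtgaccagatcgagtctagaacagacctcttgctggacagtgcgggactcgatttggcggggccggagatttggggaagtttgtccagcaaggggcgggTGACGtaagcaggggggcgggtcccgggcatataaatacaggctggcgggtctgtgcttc
JUN, chr1:58784048-58784297, minus strand: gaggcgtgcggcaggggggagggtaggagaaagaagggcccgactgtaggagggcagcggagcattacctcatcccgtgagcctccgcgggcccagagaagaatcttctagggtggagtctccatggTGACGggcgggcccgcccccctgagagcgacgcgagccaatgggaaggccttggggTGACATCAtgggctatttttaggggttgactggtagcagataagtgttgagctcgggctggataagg
JUND, chr19:18281623-18281872, minus strand: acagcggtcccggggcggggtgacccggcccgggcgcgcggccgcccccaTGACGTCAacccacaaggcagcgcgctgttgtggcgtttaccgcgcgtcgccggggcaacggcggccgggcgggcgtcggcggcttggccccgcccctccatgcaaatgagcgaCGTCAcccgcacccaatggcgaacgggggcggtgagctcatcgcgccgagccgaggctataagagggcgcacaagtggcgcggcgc
BATF, chr14:75522219-75522468, plus strand: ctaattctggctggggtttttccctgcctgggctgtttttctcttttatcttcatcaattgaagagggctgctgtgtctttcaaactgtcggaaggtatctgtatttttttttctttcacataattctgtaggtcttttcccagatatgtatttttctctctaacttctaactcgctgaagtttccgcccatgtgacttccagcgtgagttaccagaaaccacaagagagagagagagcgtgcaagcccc

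Promoter sequences were listed for 8 members, all but FOSL1 and BATF3. TGACG, a motif chosen after the data were seen, was present in all 6 FOS and JUN members among them and in neither BATF nor BATF2. It was found in 25.5% of the same stretch of 15813 protein-coding genes, and in 32.7% of the 9057 that had a peak over the promoter in both lines. In FOS it stood at positions -64 to -60 from the start and in FOSB at -60 to -56, each followed by a TATAAA box (at -33 to -28 in FOS and -30 to -25 in FOSB). JUNB had TGACG at -137 to -133 and TATAAA at -31 to -26. FOSL2 had it on both strands, at -201 to -197 and at -66 to -62.

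JUN carried TGACATCA at -67 to -60, a form of the element bound by JUN and ATF2 pairs, and JUND carried the full palindrome TGACGTCA at -200 to -193. BATF2 had TGACATCA at -132 to -125 of an internal start that lay under no peak in either line. TGACNTCA, which includes TGACGTCA, was present in 3 of 8 members and in 6.49% of all promoters. TGACGTCA was present in 1 of 8 and 2.32%, and it holds TGACG on both strands. A further TGACG stood at -123 to -119 in JUN and, on the other strand, at -86 to -82 in JUND. The classic AP-1 site TGANTCA was in 0 of 8 members and 5.05% of all promoters, and the SRF CArG box in 0 of 8 and 1.14%. Only the listed stretch before the start was searched. A site further upstream would be missed, so these counts do not show that a member lacks an SRF box or AP-1 site. TATAAA was in 3 of 8 members (9.25% of all) and CCAAT in 3 of 8, the JUN members (34.4%). The FOS and JUN members had 62.0 to 74.8% GC and 14 to 40 CpG in the stretch, and BATF had 43.2% and 5, with medians of 62.4% and 17.0 over all promoters. A match shows the letters, not binding.

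All 10 members had a peak within 1 kb of a gene end in at least 1 line, and 8 had one in both. By line, 9 of 10 members had such a peak in J76 (64.6% of all protein-coding genes) and 9 of 10 in 293T (69.7%). The share with one in both lines was 60.7% over all genes. One member, BATF, had an end peak in J76 only, as did 3.94% of all genes, and one, BATF2, had one in 293T only, as did 9.09%. With 2 libraries there are 4 possible patterns, so 12115 genes show the pattern of the 8 members, and no likeness between genes was computed.

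FOS, the partner protein induced most sharply by growth signals, had 1 peak across its start in each line. In J76 it ran from position -651 to 694, counted in bases from the start (fold 5.39, −log10 q 57.1), and in 293T from -472 to 784 (3.41, 29.4). Their summits lay 478 bp apart, before the start in J76 and inside the gene in 293T. The 293T list held 2 further weak peaks inside the gene (folds 1.74 and 2.09), both without a J76 counterpart. Peaks covered 20.4% of the FOS body in J76 and 49.0% in 293T.

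FOSB, whose truncated form is known from long-lasting responses in neurons, differed at the start itself. J76 had a peak of fold 3.65 and −log10 q 24.4 from -413 to 115 (chr19:45467583-45468111), and 293T had no overlapping peak. Inside the gene the lines had matching peaks, with summits 3 bp apart near 0.297 kb (fold 2.27 in J76 and 2.97 in 293T) and 7 bp apart near 1.32 kb (5.25 in J76 and 3.87 in 293T). The 293T peak nearest the start began 172 bases into the gene. The J76 peak covered all 250 bases shown above, with the TGACG and TATAAA boxes, and no 293T peak touched them.

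FOSL2 and FOSL1 encode FRA2 and FRA1, which replace FOS late after stimulation. FOSL2 had nearly the same peak in both lines, from -798 to 337 in J76 (fold 5.75) and from -860 to 330 in 293T (5.42). FOSL1 had a peak at its edge of higher coordinate in both, of 536 bp in J76 (6.81) and 493 bp in 293T (5.48). A second peak within 1 kb of the other edge of FOSL1 (6.79 in J76 and 5.85 in 293T) had its summit 85 and 90 bp from an end of CCDC85B, and so cannot be given to FOSL1 alone. The highest peak in the FOSL1 window lay between C11orf68 and DRAP1 (7.53 in J76 and 9.66 in 293T).

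JUN, a strong activator and a target of the kinase JNK, had wide start peaks. The J76 peak measured 2031 bp (fold 5.13, −log10 q 64.3) and the 293T peak 2909 bp (2.28, 26.5), with summits 6 bp apart, at positions -57 and -63. Together with weaker peaks they covered 47.3% of the gene in J76 and 83.0% in 293T. In 293T there were also peaks of fold 1.69 and 1.67 at the far end of the gene. Folds under 2 were rare in both lists, 0.199% of J76 peaks and 0.303% of 293T peaks, and the windows held 2 such peaks of 93 in J76, at JUN (1.99) and FOSL2 (1.93), and 3 of 89 in 293T, 2 at JUN and 1 at FOS.

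JUND, the member expressed steadily in most cells, was covered along its whole length in J76 by a peak of 2672 bp (4.82), while the 293T peak of 1386 bp (3.81) covered 40.3% of the gene. JUNB, often an antagonist of JUN, had start peaks almost alike, 684 bp in J76 (3.86) and 667 bp in 293T (4.00). It also had a shared peak just past its far end (3.84 in J76 and 4.11 in 293T). Its start lies inside the neighbouring gene HOOK2, and the start peak is also within 1 kb of an end of HOOK2.

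BATF and BATF2 each had an end peak in 1 line. BATF, which drives effector T cell programmes with IRF4, had a J76 peak from -140 to 377 (chr14:75522329-75522846, fold 5.23, −log10 q 14.9) and no 293T peak within 1 kb of either end. BATF2, an interferon-induced member, had a 293T peak across its edge of higher coordinate (chr11:64996809-64997118, fold 5.63, −log10 q 11.6), and J76 had none in the whole gene. Both peaks were of middle rank, with a lower −log10 q in 60.1% of the J76 list and 58.5% of the 293T list. BATF3, needed for cross-presenting dendritic cells, had wide edge peaks in both, 1710 bp in J76 (6.33) and 2 peaks of 1097 and 1224 bp in 293T (5.40 and 3.63).

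**Figure D1:**
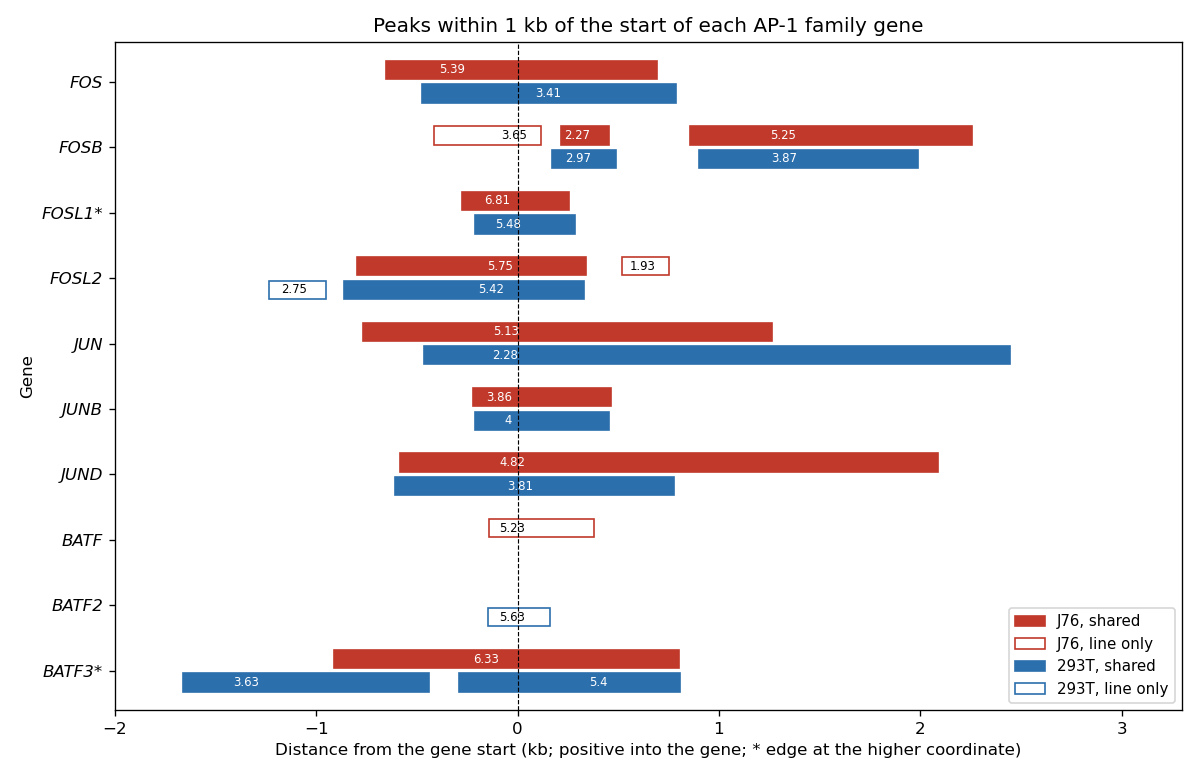
Peaks within 1 kb of the start of each gene, drawn to scale in kb from the start, with J76 in red above 293T in blue; filled bars overlap a peak of the other line, open bars do not, and each number is the fold at the summit. For FOSL1 and BATF3 (asterisk) the edge at the higher coordinate stands in for the start, and for BATF2 the outer edge of the gene is used. Open bars cross the start at FOSB and BATF in J76 and at BATF2 in 293T.

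Over the 300 base promoter window, the 250 bases above and the 50 after them, 7 of the 8 listed members had a peak in J76 (60.3% of 15813 genes) and 5 of 8 in 293T (66.0%). The members that differed were FOSB and BATF, and BATF2, whose listed start is the internal one, had none in either.

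The folds at the ends of the family genes were low beside the end folds of other genes in each list. The highest end peak of a member had a median fold of 5.25 in J76 (range 3.86 to 6.81, 9 members) and 4.11 in 293T (2.28 to 5.85, 9 members). The 5.85 is the peak beside CCDC85B; at the start edges alone the 293T median was 4.0 (2.28 to 5.63). Over all protein-coding genes with an end peak the medians were 8.45 and 7.79, and in each list all 9 members lay below the median of all genes. Over all peaks, wherever they lay, the list medians were lower, 4.83 in J76 and 4.38 in 293T. The share of genes with a lower fold was 13.0% in J76 and 0.179% in 293T for JUN, the lowest of the members in 293T. For FOS it was 14.9% in J76 and 2.92% in 293T. The J76 order had JUNB lowest, at 5.29%. All peaks of a list are another reference than the end peaks of genes. Among all peaks the fold was lower in 54.7% of the J76 list and 0.976% of the 293T list for JUN. For FOS it was lower in 58.2% and 25.1%, and for JUNB in J76 in 29.2%. The −log10 q placed these peaks higher than the fold did among all peaks, and it was not ranked among end peaks alone. It was lower in 89.0% of the J76 list and 78.4% of the 293T list for JUN. For FOS these shares were 86.8% and 80.3%, and for JUNB in J76 the share was 73.1%. Of 14 immediate early genes and SRF factors, 11 lay below the median of all genes in J76 and 12 in 293T, with medians of 5.14 and 4.78. Low end folds were found in other lists too: 10 of 13 bZIP relatives with an end peak lay below that median in J76 and 13 of 15 in 293T, as did 7 of 8 T cell markers in J76 and 6 of 8 kidney and epithelial markers in 293T. Of the 16 kinases and phosphatases upstream of AP-1 it was 7 in J76 and 9 in 293T. Folds from different lists are not on a common scale, so no fold of J76 is tested against one of 293T.

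The windows around the genes held more peaks than the usual gene. A member had a median of 8.0 J76 and 8.5 293T peaks in its window, against 5.0 and 6.0 over all protein-coding genes. The members are shorter (median 7840 bp against 24170 bp), and over the genes no longer than the longest member the medians were 5.0 and 5.0. The windows of 7 members also hold other genes, and the comparison was not matched for the number of neighbouring genes. Counts per member ran from 3 at BATF2 to 20 at JUNB in J76 and from 4 at FOSL2 and BATF to 17 at FOSB in 293T. By subfamily, the 4 FOS genes had 42 peaks in J76 and 41 in 293T, the 3 JUN genes 34 and 32, and the 3 BATF genes 17 and 16.

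Peaks with at least 1 bp in common between the lists were counted as shared, and the rest as line-only. In J76, 59 of 93 window peaks were shared (63.4%, exact binomial 95% interval 52.8 to 73.2), beside 52.3% of the whole list. In 293T, 60 of 89 were shared (67.4%, 56.7 to 77.0), beside 36.0%. The intervals cover counting error only. They treat peaks as independent, although the peaks lie in 10 windows of 1 library per line. Sharing differed between windows, in J76 from 1 of 7 peaks at FOSL2 to 10 of 12 at FOSB and 3 of 3 at BATF2, so the intervals may be too narrow. Window peaks lay within 1 kb of an end of some gene more often than the lists as a whole, 40.9% in J76 and 43.8% in 293T beside 21.9% and 17.3%. Every window holds a gene by construction, so the whole list is not a matched comparison for this share. Peaks at gene ends were shared more often than others in both lists. At gene ends 30 of 38 J76 window peaks (78.9%, beside 87.8% of the list there) and 31 of 39 293T window peaks (79.5%, beside 76.9%) were shared. Away from gene ends it was 29 of 55 in J76 (52.7%, beside 42.3%) and 29 of 50 in 293T (58.0%, beside 27.4%). Summits of shared window peaks had a median distance of 33.0 bp, and lay within 100 bp for 48 of the 59 J76 peaks. These peaks overlap by definition and the nearest partner summit was taken, so short distances are partly built in. The distance over all shared peaks of the lists was not computed.

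The windows held 34 J76-only and 29 293T-only peaks, a difference of 5. The median difference per gene was 0.5 in the members, -1.0 over all genes and 0.0 over the genes no longer than the longest member. More J76-only than 293T-only peaks were present at 5 of 10 members (29.7% of all genes), fewer at 4 (53.6%), and the numbers were equal at BATF3. The sign of the summed difference is not firm: it was -1 with peaks of −log10 q of at least 10, -3 with a 20 kb flank and -7 with a 100 kb flank. Lists of equal length gave 18, but only the 293T list was cut for this, which can raise the difference and not lower it. Members leaning to J76 were JUNB (7 J76-only and 2 293T-only peaks), BATF (4 and 0), FOSL2 (6 and 3), FOS (5 and 3) and FOSL1 (3 and 2). Those leaning to 293T were JUN (3 and 7), FOSB (2 and 5), BATF2 (0 and 2) and JUND (2 and 3). These counts take whole windows. Every 293T-only peak in the FOSB and JUNB windows, and most J76-only peaks in the JUNB window, had another gene as the nearest. The J76-only peak across the FOSB start was nearest to FOSB.

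**Figure D2:**
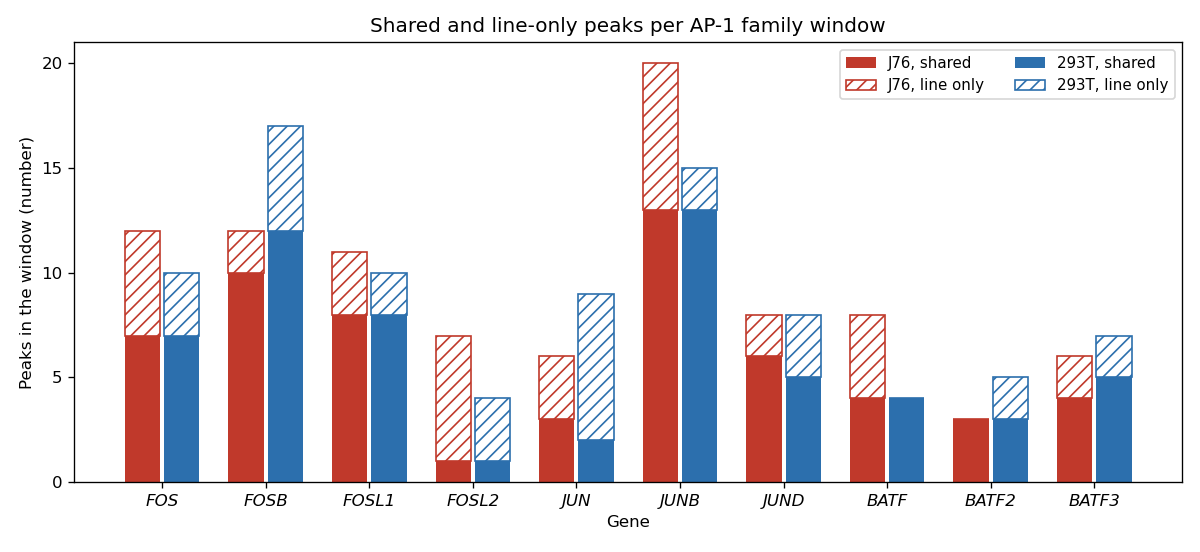
Number of peaks in the window of each gene, with the J76 bar left of the 293T bar; solid parts are shared peaks and hatched parts are found in 1 line only. BATF had no 293T-only peak, BATF2 no J76-only peak, and at FOSL2 a single peak was shared in each line.

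FOS, FOSL2 and JUN had no other protein-coding gene in their windows. They had 25 J76 peaks, 14 of them J76-only, and 23 293T peaks, 13 of them 293T-only. At the other 7 members 20 of 68 J76 and 16 of 66 293T peaks were line-only. Over the whole lists 28034 of 58730 J76 peaks and 54385 of 84951 293T peaks were line-only, while 52.3% and 36.0% were shared. The nearest gene was the member for 42 of the 93 J76 peaks and 40 of the 89 293T peaks.

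Around FOS the strongest peaks lay outside the gene and were common to the lines. A peak at -19.6 kb (chr14:75258738-75259852) had a fold of 9.12 in J76, and its 293T counterpart had 9.11 with a summit 78 bp away. One at 15.4 kb, past the end of the gene, had 8.23 in J76 and 8.68 in 293T, with summits 57 bp apart. Both exceeded the start peak in each list. Weaker shared peaks followed at 24.8 and 29.1 kb, with summits 1 and 16 bp apart. Of the 5 J76-only peaks near FOS, those at -48.6 kb (5.94), -29.2 kb (5.91) and 28.3 kb (6.09) lay above the J76 list median, and those at -31.2 kb (2.65) and -18.7 kb (2.52) below it. The 293T-only peaks near FOS, 3 in number, had folds of 1.74 to 2.56.

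FOSL2 had another layout. Its start peak was the only one shared, and the 6 other J76 peaks and 3 other 293T peaks had no partner. The J76-only peaks had folds of 1.93 to 3.79, below the list median. The strongest 293T-only peak there lay at 59.8 kb from the start, past the end of the gene (chr2:28452498-28452794, fold 6.20).

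JUN had 1 strong distal peak in both lines, at -32.4 kb, with a fold of 9.64 in J76 (chr1:58816145-58816829) and 5.83 in 293T, summits 50 bp apart. The J76 peak there was 685 bp wide and the 293T peak 1899 bp. All other distal peaks at JUN were line-only, with folds at 3.73 to 4.49 for J76 and at 2.95 to 4.39 for 293T.

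At JUNB, FOSB, FOSL1 and BATF2 much of the window belonged to neighbours. BATF2 had no J76 peak nearer than the ends of ARL2, SNX15 and SAC3D1, whose peaks were shared (8.78, 10.1 and 8.77 in J76, 9.48, 10.3 and 9.54 in 293T). The highest peak in the FOSB window was at an end of RTN2 (11.0 in J76 and 9.80 in 293T). Closer to FOSB, a shared peak at 10.6 kb, past the gene's end, had 7.48 in J76 and 5.73 in 293T. At -12.1 kb 293T alone had a peak of fold 6.41, and at 55.9 kb, inside VASP, one of 5.98.

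In the JUNB window the highest J76 peak was at an end of RNASEH2A (6.94 in J76 and 7.98 in 293T). The highest 293T peak was inside HOOK2, at -25.3 kb (5.82 in J76 and 9.77 in 293T, summits 2 bp apart). The strongest line-only peaks there were a J76 peak at -21.6 kb inside HOOK2 (6.03) and a 293T peak at 49.3 kb inside MAST1 (6.43), the highest fold among the 293T-only peaks of the 10 windows. JUND had a pair of J76 peaks at -10.1 and -10.6 kb (5.79 and 3.91) that overlapped a single 293T peak at -10.5 kb (5.83). A shared peak lay at -47.0 kb (7.57 in J76 and 9.06 in 293T, summits 1 bp apart). Its highest peak was at an end of LSM4 (10.1 in J76 and 11.1 in 293T).

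BATF had a second J76-only peak inside the gene, at 20.4 kb from the start (fold 5.70, 909 bp wide), and weaker J76-only peaks at -7.16 and 44.1 kb. Of the 4 shared peaks at BATF, those at -33.5, 13.8 and 38.7 kb had 4.86, 3.73 and 3.29 in the J76 list and 5.63, 3.55 and 5.63 in the 293T list. The other, at an end of FLVCR2, had 3.99 in J76 and 7.59, the highest 293T fold of the window. BATF3 had its highest peak at -21.0 kb from its lower edge, shared at 9.34 in J76 and 10.7 in 293T with summits 11 bp apart.

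Line-only peaks were of ordinary strength for such peaks. Their median fold was 3.76 in J76 and 3.75 in 293T, beside 3.95 and 3.76 for all line-only peaks of the lists, and the highest were 6.09 and 6.43. Shared window peaks had medians of 5.25 and 5.41, beside 6.23 and 6.46. A −log10 q of at least 10 was reached by 12 of the 34 J76-only peaks (35.3%, beside 29.7% of all J76-only peaks) and 10 of the 29 293T-only peaks (34.5%, beside 27.8%).

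**Figure D3:**
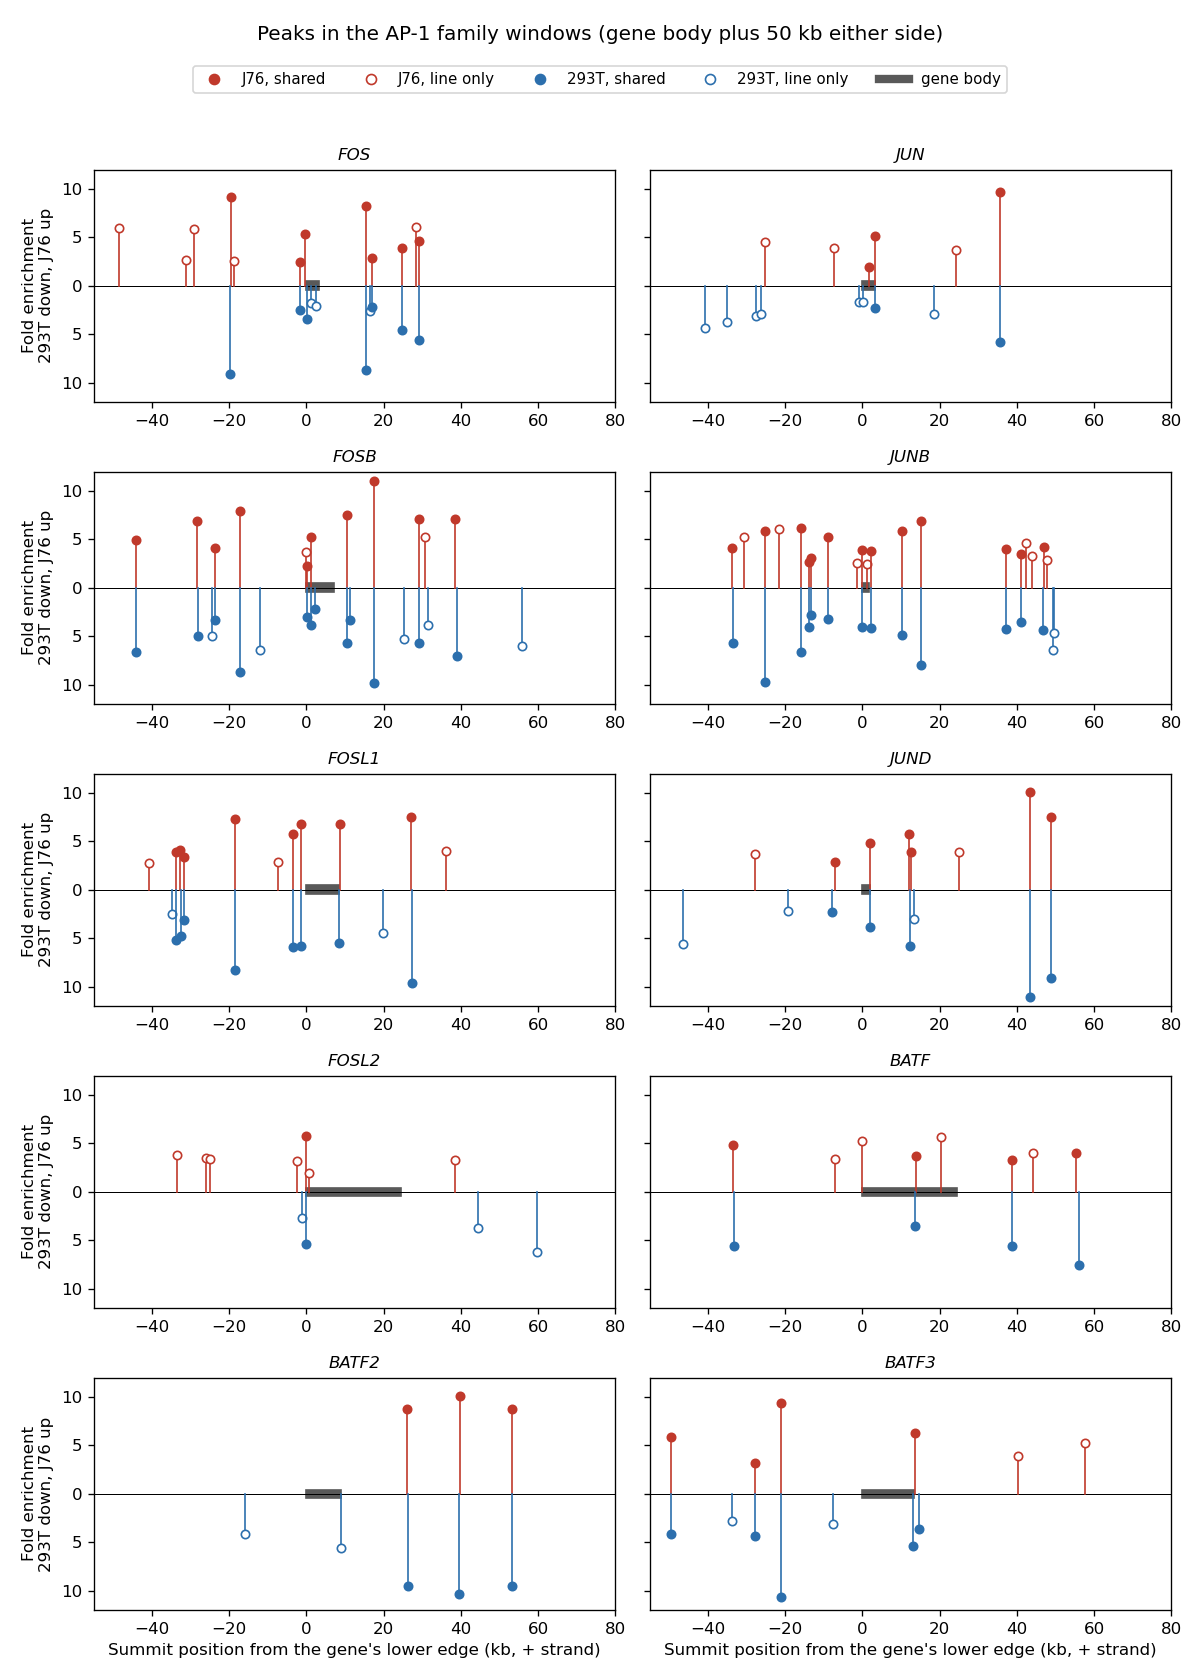
Summits of all peaks in the 10 windows, in kb from the lower edge of the gene on the plus strand, with the fold drawn upward for J76 (red) and downward for 293T (blue); filled circles are shared, open circles line-only, and grey bars the gene bodies. The tallest stems near FOS, JUN and BATF3 lie outside the genes and have partners on both sides, and at FOSL2 a single pair is filled.

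Genes around AP-1 in the pathway mostly had an end peak in both lines. The share over all genes was 60.7%. Of 15 bZIP partners and relatives, 13 had an end peak in both, among them ATF7 (11.5 for J76, 9.61 for 293T) and ATF2, a partner of JUN (10.5 and 9.11), and 2 had one in 293T only. These were CREB5 (6.68) and ATF3, a stress-induced partner (2.0). All 16 upstream kinases and phosphatases had an end peak in both lines, among them MAP2K4, which activates JNK (11.8 and 12.2). So did all 14 immediate early genes and SRF factors, with ELK1 (11.1 and 11.6) and MRTFA (10.4 and 10.6) highest and IER2 lowest (2.71 and 2.53).

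Textbook AP-1 targets were split. Of 14, 0 had an end peak in J76 only, 6 in 293T only, 3 in both and 5 in neither. Over all genes 3.94% had one in J76 only and 9.09% in 293T only. The 293T-only genes with the highest folds were IL2, the T cell growth factor (7.93), HMOX1, a haem-degrading enzyme (7.14), PLAUR, the urokinase receptor (6.81), and MMP10, a matrix metalloproteinase (6.02). IL2 is a T cell gene, and its end peak was in the kidney line and not in J76. TIMP1 (6.30 for J76, 10.3 for 293T) and VIM (4.82 and 4.14) led those with a peak in each, and CD69 and CSF2 had none in either. Of the 2 IRF partners of BATF, IRF8 had an end peak in 293T only (8.75) and IRF4 in neither line.

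**Figure D4:**
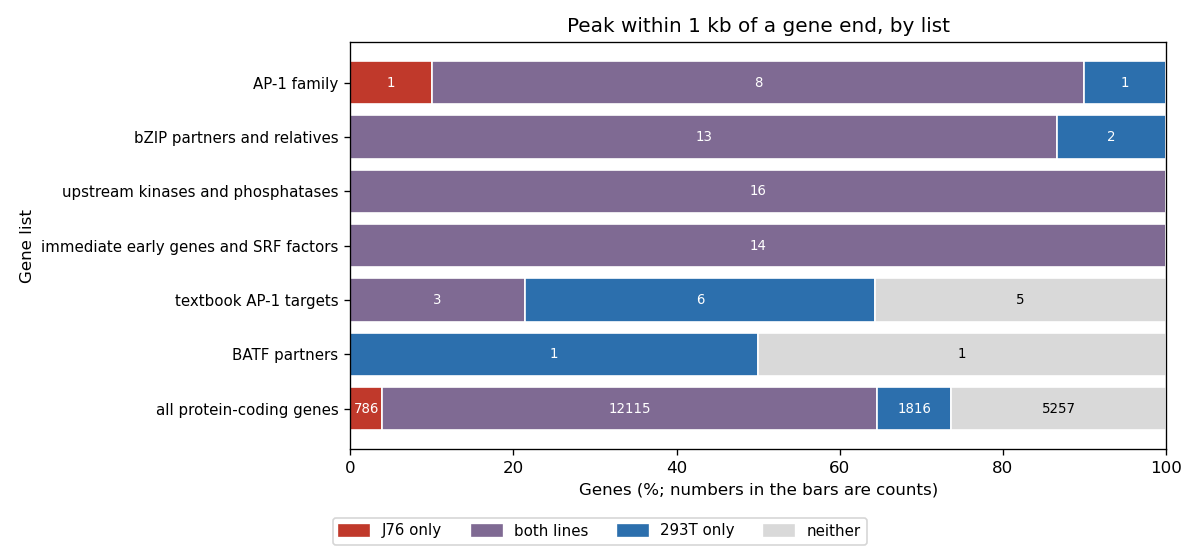
Share of genes in each list with a peak within 1 kb of a gene end in J76 only, both lines, 293T only or neither (percent on the axis, counts in the bars). Of the AP-1 family 8 of 10 are in both lines, while 6 of 14 textbook AP-1 targets are in 293T only.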

How the data were processed

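ATAC-seq peak lists of 2 human cell lines were used, 1 library each, grouped by the cell line label. The submitters' processing notes name Bowtie2 and MACS2. The sources used here do not give versions, settings, duplicate removal or any shift to the Tn5 cut. The deposited lists hold, per the narrowPeak layout, the authors' fold enrichment (a linear ratio), −log10 p-value and −log10 q-value, the summit position and a whole-number score. The deposited score equalled 10 times the −log10 q without its decimals in 100.0% of peaks. Depth is unknown, so a missing peak does not show closed chromatin.

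The sources used here do not name the build. Contig names are those of GRCh38, and summits within 1 kb of a gene end fell from 20.7% to 4.42% in J76 and from 16.2% to 3.73% in 293T when all peaks were moved by 10 kb. Positions are GRCh38, counted from 1. Genes and promoters came from RefSeq tables of GRCh38.p14; the promoter table gave strand and start for 8 members, and FOSL1 and BATF3 were read at gene edges only. Motifs were searched as letters on both strands of the 250 bases before the start. Motifs other than the AP-1 site, the palindromic cAMP response element and the SRF box were chosen after the data were seen. Motifs within peaks were not searched, as no genome sequence was used here.

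Overlaps were computed with Python 3.11.15, pandas 2.3.3 and numpy 2.4.6, and intervals with scipy 1.17.1; the overlap code was tested on simulated peaks. With 1 library per line no test between lines was made. Named were all members, their highest and start peaks, the 5 line-only peaks of highest fold per line and, per pathway list, up to 4 genes with an end peak in 1 line only and 2 in both, highest fold first (1 kinase is not reported here); IRF4, CD69, CSF2, IER2 and other peaks described were chosen after their values were seen. The members and lists were chosen with earlier results of these data known. Alternatives were stricter −log10 q, lists of equal length, other flanks, end windows and definitions of sharing, and peaks nearest to the member only.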

Additional observations from a re-analysis of the deposited data

How the results depend on the processing

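Members with a peak at a gene end stayed at 9 in each line under a −log10 q of at least 5 or 10, lists of equal length, and end windows of 500 bp or 2.5 kb. The sign of J76-only minus 293T-only window peaks (main value 5) turned to -1 at a −log10 q of at least 10 (16 against 17 peaks, counted after both lists were cut, so that peaks whose partner dropped out are included), to -3 with a 20 kb flank and to -7 with a 100 kb flank. With 58730 peaks from each list the difference was 18 (37 against 19). Only the 293T list was cut there, which by construction can raise the difference and not lower it. The difference was 3 for peaks nearest to the member, 6 at a −log10 q of at least 5, and 4 with 50% reciprocal overlap or summits within 250 bp. A lean of the family to a line is therefore not shown. Window peaks, 93 in J76 and 89 in 293T, became 57 and 58 at a −log10 q of at least 10, 47 and 51 with a 20 kb flank, 142 and 150 with a 100 kb flank, and 42 and 40 for peaks nearest to the member; fewer or more bases and peaks are counted by construction. In the other settings these counts stayed within 1.5 times. No paired analysis was possible because each line had 1 library. Depth is unknown, and its part in the line-only peaks was not tested.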

Other observations

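Relatives of the family lie near members in 2 places. On chromosome 14 JDP2, which encodes a repressor that pairs with JUN, lies between FOS and BATF, and the stretch of 268 kb across the 3 genes held 14 J76 peaks, 5 of them J76-only, and 12 293T peaks, 3 of them 293T-only. Its highest peak was the shared one past the end of FOS (8.23 in J76 and 8.68 in 293T). On chromosome 1 ATF3 lies 65.6 kb from BATF3, with an end of another gene, GARIN4, in the gap. That stretch of 134 kb held 11 J76 peaks, 2 of them J76-only, and 15 293T peaks, 7 of them 293T-only. Its highest peak was the shared one between the genes (9.34 in J76 and 10.7 in 293T). Beside both stretches, 28034 of 58730 J76 peaks and 54385 of 84951 293T peaks were line-only over the whole lists. ATF3 had an end peak in 293T only, and JDP2 had one at 6.18 in the J76 list and 7.67 in the 293T list.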
